A study of Homo sapiens with 28 samples.

Results

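Mitosis and spindle genes are the 52 genes examined here, taken by name from a list of G2/M regulators, spindle checkpoint, kinetochore, kinesin, spindle and cytokinesis genes; all 52 were among the 26443 genes with a value in each of the 28 libraries. The libraries were poly(A) RNA-seq of LNCaP, an androgen-responsive human prostate cancer line, carrying an shRNA against HOXB13 (shHOXB13, a single pGIPZ hairpin) or the control vector (shCtrl). In the knockdown series, 8 groups of 2 libraries held shCtrl or shHOXB13 cells with no further hairpin or together with shp300, shCBP or both (shp300/CBP, pLKO.1, a single hairpin per gene). The sources used here do not say whether the groups with no further hairpin received an empty pLKO.1 virus. Effects of the added hairpins were therefore not separated from any effect of a further transduction. In the CCS1477 series, 4 groups of 3 libraries held shCtrl or shHOXB13 cells given DMSO or 250 nM CCS1477, an inhibitor of the p300/CBP bromodomain, for 48 h. Every group came from this 1 cell line, grown in serum and given hairpins by lentivirus, and no second hairpin against a target was analysed here. Values are FPKM, that is, fragments scaled to gene length and to the mapped reads of the library. The members were placed by role: 8 act at mitotic entry, 8 in the spindle checkpoint or the anaphase-promoting complex (APC/C) step, 4 in the chromosomal passenger complex, 11 at the kinetochore, 9 are kinesins, 5 are other spindle proteins, 3 act in cytokinesis and 4 are regulators or chromosome proteins of G2/M.

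Cells prepare for division by raising a set of transcripts late in the cycle. CDK1 with cyclin A or cyclin B drives entry into mitosis, PLK1 and the Aurora kinases build the spindle, the kinetochore attaches chromosomes to it, the checkpoint proteins BUB1, BUB1B, BUB3, MAD2L1 and TTK hold back CDC20 and the APC/C until attachment is complete, and PRC1, ANLN and ECT2 act in the final cleavage. Most of these genes are known targets of the MuvB complex, which silences them in resting cells as part of DREAM and activates them in G2 together with B-MYB (*MYBL2*) and FOXM1. MuvB binds the cell cycle genes homology region (CHR), and NF-Y binds CCAAT boxes upstream of it.

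The promoters of these genes shared letters that were not themselves used to choose them. Most of the genes are known MuvB targets, so the CHR counts are not independent of what was already known of them. RefSeq promoters (GRCh38.p14, 250 bases before to 50 after the start) were matched for 44 of the 52 members, and 32 of the 44 (72.7%) held the CHR letters TTTGAA or TTCGAA on either strand, against 13.8% of the 16199 promoters of listed genes. Within 100 bases before to 50 after the start the shares were 65.9% and 5.72%. The CCAAT letters, on either strand, were in 72.7% of member promoters and in 36.3% of all, and 47.7% of member promoters held at least 2 copies, against 12.1%. Both motifs were in 25 member promoters (56.8%, against 5.61% of all). The E2F letters TTTGGCGC or TTTCGCGC, also on either strand, were in 3 of the 44 (6.82%, against 1.48%). Of the 25 matched promoters of DNA replication genes, a list of S-phase genes used for comparison, 2 held the CHR letters (8%) and 8 the E2F letters (32%). Motifs were counted apart, whether or not they overlapped, and a match describes letters, not a binding site.

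The promoters of 6 members are shown because the results below turn on their genes, with CHR and CCAAT letters of either strand in capitals:
CCNB2, chr15:59104896-59105195, plus strand: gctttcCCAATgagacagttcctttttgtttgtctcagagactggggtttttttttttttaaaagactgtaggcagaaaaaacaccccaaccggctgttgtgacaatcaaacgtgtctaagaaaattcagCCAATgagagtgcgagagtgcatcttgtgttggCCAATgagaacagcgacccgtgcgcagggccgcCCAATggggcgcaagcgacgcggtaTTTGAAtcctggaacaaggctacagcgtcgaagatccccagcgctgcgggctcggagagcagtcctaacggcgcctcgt
PLK1, chr16:23678639-23678938, plus strand: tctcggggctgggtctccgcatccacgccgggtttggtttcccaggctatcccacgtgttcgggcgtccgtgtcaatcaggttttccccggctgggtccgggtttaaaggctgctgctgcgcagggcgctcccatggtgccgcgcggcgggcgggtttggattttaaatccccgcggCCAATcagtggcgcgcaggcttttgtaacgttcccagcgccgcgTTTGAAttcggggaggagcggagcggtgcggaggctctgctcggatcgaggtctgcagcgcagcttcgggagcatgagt
CDC20, chr1:43358731-43359030, plus strand: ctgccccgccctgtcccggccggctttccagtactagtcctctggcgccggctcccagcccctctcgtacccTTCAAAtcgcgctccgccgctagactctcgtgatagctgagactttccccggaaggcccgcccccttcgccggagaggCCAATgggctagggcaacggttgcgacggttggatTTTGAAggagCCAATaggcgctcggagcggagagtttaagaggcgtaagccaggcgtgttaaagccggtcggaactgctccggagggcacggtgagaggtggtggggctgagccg
TOP2A, chr17:40417847-40418146, minus strand: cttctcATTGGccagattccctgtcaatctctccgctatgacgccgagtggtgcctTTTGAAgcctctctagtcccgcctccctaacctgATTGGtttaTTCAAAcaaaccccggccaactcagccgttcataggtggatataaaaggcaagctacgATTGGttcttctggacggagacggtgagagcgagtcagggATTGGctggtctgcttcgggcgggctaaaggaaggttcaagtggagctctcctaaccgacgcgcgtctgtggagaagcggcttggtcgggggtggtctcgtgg
CDK1, chr10:60778081-60778380, plus strand: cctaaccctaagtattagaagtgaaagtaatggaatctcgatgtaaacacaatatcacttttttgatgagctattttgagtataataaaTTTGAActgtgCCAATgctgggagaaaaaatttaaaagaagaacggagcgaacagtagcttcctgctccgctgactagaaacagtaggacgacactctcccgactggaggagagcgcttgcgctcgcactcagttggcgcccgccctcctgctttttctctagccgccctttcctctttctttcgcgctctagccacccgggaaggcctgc
CDC25B, chr20:3786701-3787000, plus strand: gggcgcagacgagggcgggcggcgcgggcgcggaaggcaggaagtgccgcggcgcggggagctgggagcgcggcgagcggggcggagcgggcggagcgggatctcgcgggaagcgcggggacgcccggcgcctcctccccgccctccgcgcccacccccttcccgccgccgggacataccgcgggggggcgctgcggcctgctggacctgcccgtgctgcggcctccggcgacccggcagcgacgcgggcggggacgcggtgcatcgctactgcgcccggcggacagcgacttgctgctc
*CCNB2* (cyclin B2) and *PLK1* each had a CHR match at −29 bases from the start with CCAAT letters upstream, *CCNB2* with 4 copies. *CDC20* and *TOP2A* (topoisomerase II alpha) had 2 CHR matches each. In *CDK1* the match lay at −161, beside its single CCAAT, and *CDC25B* had neither motif in this window. Across the members the 43 CHR matches lay from −247 to 40 bases from the start, with a median of −23. Members with and without CHR letters had, under shHOXB13 in the knockdown series, median log2 changes of −2.67 (32 members) and −2.76 (12 members).

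**Figure D1:**
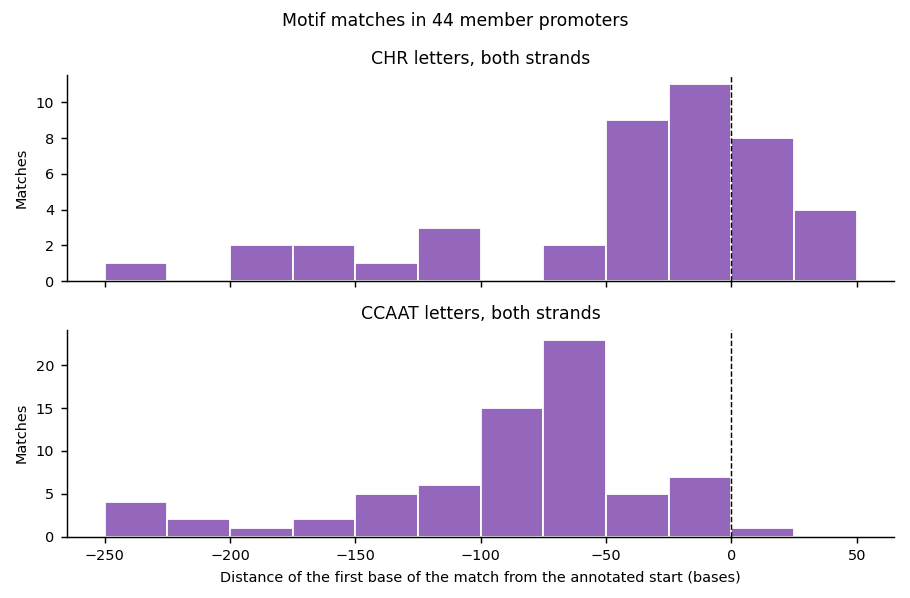
Histograms of the distance in bases from the RefSeq start to each match of the CHR letters and of the CCAAT letters (either strand) in the 44 member promoters; the y axes count matches. CHR matches gather near the start, with a median of −23, while CCAAT matches spread further upstream.

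Member levels differed widely between groups. In shCtrl cells of the knockdown series the median member was at 3 and 2.79 FPKM in the 2 libraries, and in shHOXB13 cells at 0.261 and 0.273 FPKM. The DMSO libraries of the CCS1477 series held more of these transcripts, with medians from 17.9 to 18.4 FPKM in shCtrl and from 1.91 to 2.24 FPKM in shHOXB13 cells. The 2 series are therefore set side by side and were not tested against each other. *BUB3*, a checkpoint protein, was the most abundant member per length in all 8 knockdown groups (39 ± 3.68 FPKM in shCtrl, SD, n = 2), and *CCNB1* (cyclin B1) led in shCtrl DMSO (58.7 ± 3.28 FPKM, n = 3). In the group with shHOXB13 alone the lowest mean was 0.0248 FPKM, for the kinetochore gene *SKA1*.

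**Figure D2:**
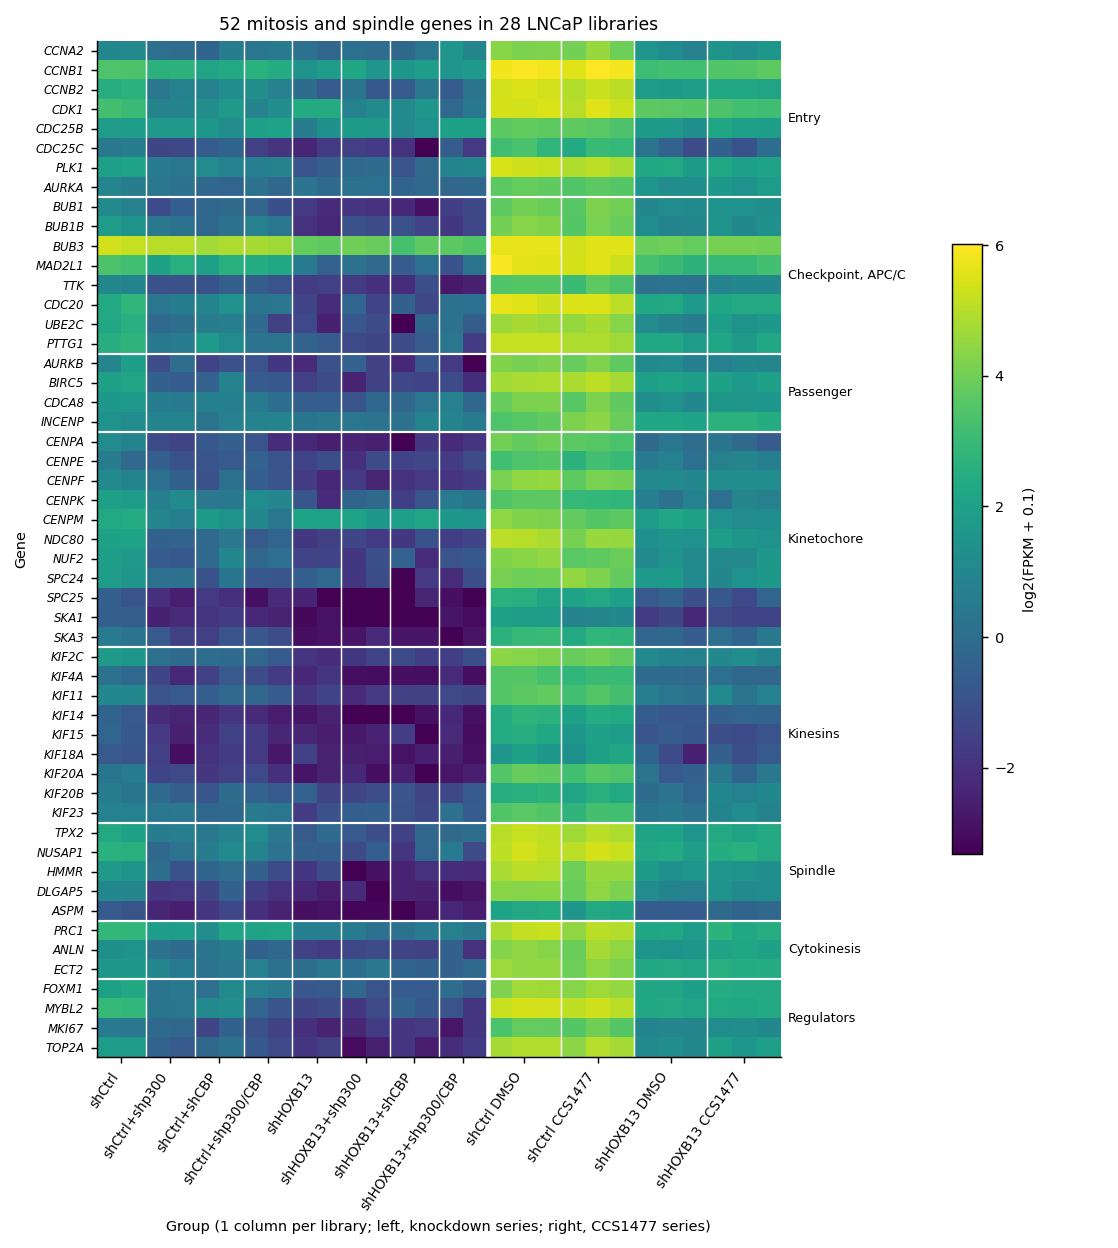
Heat map of log2(FPKM + 0.1) for the 52 members (rows, by role) in the 28 libraries (columns, by group). Lighter colours are higher values: the shHOXB13 columns are darker than the plain shCtrl columns of the same series in nearly every row, *BUB3* is the lightest row in the knockdown series, and the shCtrl columns of the CCS1477 series hold the highest values.

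Depth set the precision. Libraries held 7458934 to 16338528 mapped reads in the knockdown series and 8085754 to 14427238 in the CCS1477 series, and because members were low in shHOXB13 cells, 35 and 40 of the 52 rested on fewer than 20 reads in the 2 shHOXB13 libraries, against 0 and 1 in shCtrl. Read numbers were inferred from the steps of the FPKM values. *HOXB13* fell by 2.93 on the log2 scale in the knockdown series and by 2.22 in DMSO, while under shp300/CBP the log2 change of *EP300* was −0.90 in shCtrl and −0.41 in shHOXB13 cells, the latter not past the threshold. That of *CREBBP*, which encodes CBP, was −0.50 and −0.27, again with only the change in shCtrl cells past it, and with shCBP alone −0.95 in shCtrl and −0.64 in shHOXB13 cells (limma adjusted p = 0.0041 and 0.064). With shp300 alone the log2 change of *EP300* was −1.24 in shCtrl and −0.79 in shHOXB13 cells (limma adjusted p = 0.0018 and 0.011). All 9 luminal prostate markers were at 1 FPKM or more in each group, with sums of 2310 to 2469 FPKM in shCtrl, 4220 to 4345 in shHOXB13 and 1147 to 1238 in shHOXB13 with shp300/CBP. Of 5 fibroblast markers, *COL1A2* and *DCN* were at 0 in both the shCtrl and the shHOXB13 group, and the 5 summed to 1.56 to 2.18 FPKM in shCtrl, 4.51 to 5.46 in shHOXB13 and 6.27 to 18.3 in shHOXB13 with shp300/CBP; the 3 basal markers summed to 3.1 to 3.63 FPKM in shCtrl and 0.0835 to 0.11 in shHOXB13. Immune markers summed to at most 0.911 FPKM and endothelial markers to at most 2.89 FPKM in any library. The part of these markers in the results below was not tested.

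HOXB13 knockdown lowered the mitosis and spindle genes as a body. In the knockdown series, 50 of 52 members fell and none rose (limma on log2(FPKM + 0.1), Benjamini-Hochberg adjusted p under 0.05 over all genes), where 30.8% of the 17678 genes tested fell and 8.45% rose. The median member log2 change was −2.62 and that of all genes −0.33, and in 52 of 52 members both shHOXB13 libraries lay below both shCtrl libraries, as they did in 52.4% of all genes. In DMSO, 52 of 52 fell, with a median of −3.13, where 42.4% of 15907 genes fell, 15.2% rose and the median gene was at −0.33. With median-of-ratios scaling, which puts the median gene at 0 in the knockdown series, 44 members fell and the median was −2.29, and in DMSO 52 still fell. In bulk RNA, fewer dividing cells and less of these RNAs per cell cannot be told apart. The low-value filter was met by 7 members (*SPC25*, *SKA1*, *SKA3*, *KIF14*, *KIF18A*, *KIF20A* and *ASPM*) through shCtrl groups alone, so their difference was built in; of the other 45, 44 fell.

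All 8 mitotic entry genes fell, with a median log2 change of −1.43 in the knockdown series and −2.88 in DMSO. With median-of-ratios scaling 4 of the 8 fell in the knockdown series (median −1.04), with an equal sum of FPKM 6 of 8, and in DMSO 8 of 8 under both. *CCNB1*, on chromosome 5 (69167135 to 69178245, GRCh38, GENCODE 44), was at 10.8 and 10.4 FPKM in shCtrl and 2.65 and 3.35 FPKM in shHOXB13, a log2 change of −1.80 (SE 0.20, limma adjusted p = 4.1e-05). *PLK1*, the Polo kinase of spindle assembly, was at 3.74 and 4.16 FPKM against 0.431 and 0.613 FPKM, a log2 change of −2.72 (SE 0.28). In DMSO the same genes were at 56.2, 62.4 and 57.5 FPKM against 8.59, 9.29 and 9.13 FPKM for *CCNB1*, and at 44, 40.7 and 37.7 FPKM against 4.73, 5.05 and 3.33 FPKM for *PLK1*. Neither gene's groups overlapped in either series, as was so for all 52 members. The all-gene share of such falls was 52.4% in the knockdown series and was not computed in DMSO. *CDC25B*, a phosphatase that activates CDK1, and *AURKA*, a spindle pole kinase, fell less, by 0.86 and 0.73 on the log2 scale in the knockdown series, and leaving out shHOXB13 replicate 1 ended the call for *CDC25B* while leaving out shCtrl replicate 1 or shHOXB13 replicate 2 ended that for *AURKA*. With median-of-ratios scaling the changes were −0.47 and −0.36 and neither passed.

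The checkpoint and APC/C genes fell in full, 8 of 8 in each series, with medians of −3.17 and −3.14. *CDC20*, the APC/C activator that the checkpoint holds, had the largest change of all members in the knockdown series, from 5.06 and 7.06 FPKM to 0.286 and 0.126 FPKM (log2 change −4.36, SE 0.42, limma adjusted p = 1.5e-05). *UBE2C*, the APC/C's ubiquitin-conjugating enzyme, went from 4.66 and 5.89 FPKM to 0.317 and 0.0834 FPKM (−4.27, SE 0.78), and *BUB1B* from 3.41 and 2.63 FPKM to 0.149 and 0.112 FPKM (−3.75, SE 0.29). These genes rested on few reads in shHOXB13 cells (6 and 2 for *CDC20*). *BUB3*, the most abundant member, had the smallest change in this role, from 41.6 and 36.4 FPKM to 13.8 and 12.8 FPKM (−1.54, SE 0.14, adjusted p = 9.2e-06). It was at 52.5, 52.7 and 51.2 FPKM in shCtrl DMSO and 14.5, 15.6 and 14 FPKM in shHOXB13 DMSO (−1.82, SE 0.07).

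Among the chromosomal passenger genes, which correct faulty attachments, 4 of 4 fell in both series. *BIRC5* (survivin) fell from 3.94 and 4.3 FPKM to 0.237 and 0.35 FPKM (log2 change −3.44) and *CDCA8* (borealin) by 2.19. *INCENP*, the scaffold of the complex, fell by only 0.95, from 2.66 and 2.16 FPKM to 1.14 and 1.24 FPKM, a call lost without shCtrl replicate 1 or shHOXB13 replicate 1. With median-of-ratios scaling its change was −0.57 and did not pass. In DMSO *INCENP* had the smallest fall of the 52 members (−1.44, SE 0.13).

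Kinetochore genes fell in 10 of 11 cases in the knockdown series (median −2.94) and in 11 of 11 in DMSO (median −3.17). *NDC80*, which binds microtubules at the outer kinetochore, went from 3.93 and 4.16 FPKM to 0.184 and 0.242 FPKM (log2 change −3.73, SE 0.32), and *CENPK*, of the inner kinetochore, from 3.85 and 3.52 FPKM to 0.462 and 0.121 FPKM (−3.42, SE 0.38). The exception was *CENPM*, another inner kinetochore gene (chromosome 22, 41938737 to 41947152). Its values were 5.04 and 5.29 FPKM in shCtrl and 4.2 and 4.09 FPKM in shHOXB13, a log2 change of −0.31 that did not pass (95% interval −0.81 to 0.19, limma adjusted p = 0.31) and that was 0.086 with median-of-ratios scaling. In DMSO the same gene was at 21.5, 18.7 and 18.1 FPKM against 3.41, 4.42 and 3.87 FPKM (−2.29, SE 0.11, adjusted p = 1.7e-08).

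Kinesins, the microtubule motors, fell in 8 of 9 cases in the knockdown series (median −2.14) and in 9 of 9 in DMSO (median −3.25). *KIF2C*, a depolymerase at centromeres, went from 3.14 and 2.94 FPKM to 0.171 and 0.128 FPKM (log2 change −3.66), and *KIF11*, the motor that separates spindle poles, from 1.94 and 1.89 FPKM to 0.189 and 0.269 FPKM (−2.63). *KIF18A* did not pass in the knockdown series (−1.14, adjusted p = 0.088), at 0.502 and 0.445 FPKM against 0.254 and 0.091 FPKM. *KIF20A*, a cytokinesis motor, had the largest change in DMSO, from 11.4, 14.1 and 13.2 FPKM to 1.11, 0.513 and 0.647 FPKM (−3.98, SE 0.26).

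The other spindle genes and the regulators fell in both series, 5 of 5 and 4 of 4. *DLGAP5* and *HMMR*, microtubule-binding spindle proteins, had log2 changes of −3.41 and −3.16 in the knockdown series and −3.40 and −3.37 in DMSO. Among the regulators, *MYBL2* went from 7.56 and 7.17 FPKM to 0.288 and 0.34 FPKM (−4.17, SE 0.33), *TOP2A*, which untangles sister chromatids, from 3.49 and 3.5 FPKM to 0.181 and 0.237 FPKM (−3.55, SE 0.34), and *FOXM1* from 3.81 and 4.63 FPKM to 0.482 and 0.518 FPKM (−2.84, SE 0.34). *MKI67*, the proliferation marker Ki-67, was at 1.29 and 1.19 FPKM against 0.147 and 0.0925 FPKM. The 3 cytokinesis genes fell as well, with log2 changes of −2.15 for *PRC1*, which bundles the midzone, −2.97 for *ANLN*, which anchors the cleavage ring, and −1.39 for *ECT2*, which activates RhoA there.

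Member by member, the shHOXB13 effects of the 2 series were related. Over the 52 members Pearson's r was 0.66 and Spearman's rho 0.60, a description across genes that are not independent. In 35 members the fall was larger in DMSO and in 17 larger in the knockdown series. Members were lower in the knockdown series, where the added 0.1 FPKM understates a fall more, so these counts do not rank the 2 series.

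**Figure D3:**
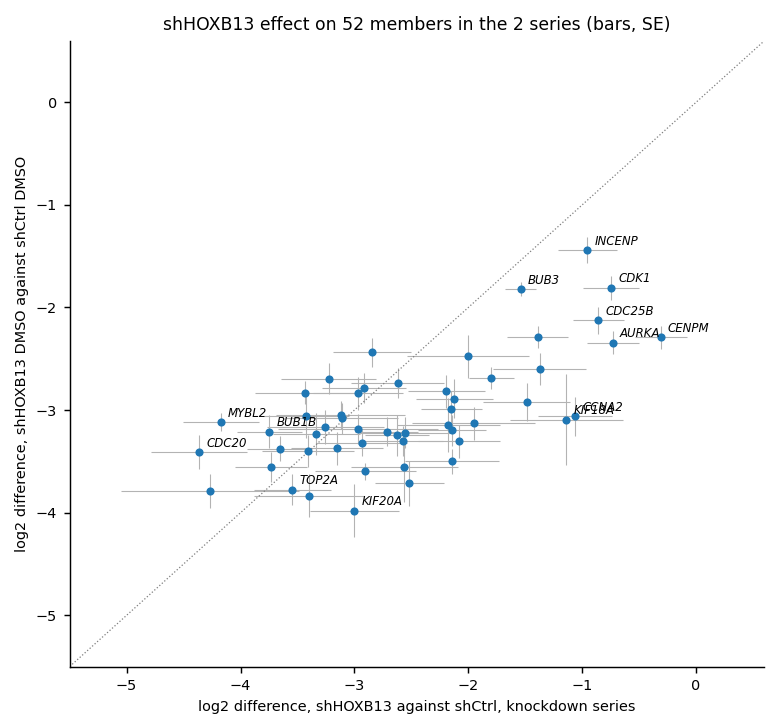
Each point is a member, with the log2 change under shHOXB13 in the knockdown series on the x axis and in DMSO on the y axis; bars are standard errors and the line marks equal change. Points lie below 0 on both axes, with *CENPM* at −0.31 and −2.29 far below the line and *CDC20* at −4.36 the farthest left.

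These genes were also lower with the p300 and CBP hairpins in cells without the HOXB13 hairpin. *HOXB13* itself fell in these shCtrl cells with shp300/CBP and with shCBP (log2 changes −0.81 and −0.87, limma adjusted p = 0.0064 and 0.0086). With shp300 its change was −0.24 and did not pass. With shp300/CBP in shCtrl cells, 41 of 52 members fell and none rose (median log2 change −1.64), where 9.4% of all genes fell, 8.9% rose and the median gene was at 0. With shp300 alone 26 fell (median −1.62, 2.19% of all genes fell and 1.05% rose), and with shCBP alone 32 fell (median −1.33, 8.09% fell and 4.14% rose, all-gene median −0.11). Leaving aside the members that passed the low-value filter through shCtrl groups alone, 45 remain. Of these, 35 fell with shp300/CBP, 22 with shp300 and 28 with shCBP. All 52 members were below both shCtrl libraries in both libraries of each single hairpin group, and 51 of 52 with both hairpins; the other was *CDC25B*, at 3.79 and 4.14 FPKM against 3.46 and 3.54 FPKM. Over all genes the same separation was seen in 26.2% with shp300, 35.8% with shCBP and 30.8% with both. These comparisons share the 2 shCtrl libraries with each other and with the HOXB13 comparison. Leaving out 1 library left 13 to 32 members called with both hairpins (13 without shCtrl+shp300/CBP replicate 2, 20 without shCtrl replicate 1, 26 without shCtrl replicate 2), 6 to 9 with shp300 and 2 to 23 with shCBP (2 without shCtrl+shCBP replicate 1, 3 without shCtrl replicate 1, 11 without shCtrl replicate 2).

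By role, with both hairpins, 6 of 8 entry, 7 of 8 checkpoint, 3 of 4 passenger, 9 of 11 kinetochore, 5 of 9 kinesin, 5 of 5 spindle, 2 of 3 cytokinesis and 4 of 4 regulator genes fell. *MYBL2* had the largest change, from 7.56 and 7.17 FPKM to 0.735 and 0.463 FPKM (log2 change −3.44, SE 0.33, limma adjusted p = 7.9e-05), and was at 1.13 and 1.18 FPKM with shp300 and 2.06 and 2.31 FPKM with shCBP. *TOP2A* followed the same order, at 0.491 and 0.319 FPKM with both hairpins (−2.85), 0.692 and 0.534 FPKM with shp300 (−2.34) and 0.793 and 1.05 FPKM with shCBP (−1.82). *NDC80* fell to 0.506 and 0.733 FPKM (−2.55) and *CENPM* to 1.9 and 1.16 FPKM (−1.73) with both hairpins. *CCNB1*, at 6.12 and 5.23 FPKM, fell by 0.90, a call lost without shCtrl replicate 1 or shCtrl+shp300/CBP replicate 2, and *BUB3*, at 27.9 and 25.3 FPKM, by 0.55, a call lost without shCtrl replicate 1 or either shCtrl+shp300/CBP library. The cytokinesis kinesin *KIF23* did not pass, at 1.35 and 1.17 FPKM against 1.65 and 1.64 FPKM (−0.37, 95% interval −1.01 to 0.28).

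In shHOXB13 cells few members were called with the same hairpins. With shp300/CBP, 6 of 52 members rose and 1 fell, where 10.4% of all genes rose and 16.2% fell, and the median log2 changes were 0.0043 for the members and 0 for all genes. Both libraries lay above both shHOXB13 libraries in 17 members, below in 10, and overlapped in 25, where 27.5% of all genes lay above and 31.7% below. With shp300 alone 1 rose and 2 fell (3.5% of all genes rose and 3.44% fell; member median −0.046). With shCBP alone no member passed in limma, 4 had an unadjusted p under 0.05, and 0.402% of all genes rose and 1.13% fell (member median −0.0051). The interval bears on what could be seen: with shp300/CBP the 95% interval of the log2 change had a median half-width of 0.82, it lay above −1 in 36 of 52 members, and it lay within −1 to 1 in 16. Members were near the floor here, with 30 and 39 of 52 under 20 reads in the shp300/CBP libraries, *SPC25* at 0 in both libraries with shp300, and *SKA1* at 0 in both with shp300 and in both with shCBP.

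*CDK1*, the mitotic kinase itself (chromosome 10, 60778331 to 60794852), was the member that fell, and its values are given at each step. HOXB13 knockdown took it from 9.56 and 8.17 FPKM to 5.18 and 5.29 FPKM (log2 change −0.75, SE 0.25, limma adjusted p = 0.032, a call lost on leaving out any of the 4 libraries, and −0.35 with adjusted p = 0.34 under median-of-ratios scaling). Adding shp300/CBP took it to 0.822 and 1.22 FPKM (−2.27, SE 0.25, adjusted p = 0.00012), and this call held without any 1 of the 4 libraries. With shp300 it was at 1.62 and 2.13 FPKM (−1.44, adjusted p = 0.0059, lost without shHOXB13 replicate 2) and with shCBP at 2.1 and 2.99 FPKM (−1.03, adjusted p = 0.059). In shCtrl cells it was at 1.7 and 2.29 FPKM with both hairpins (−2.11), 1.73 and 1.73 FPKM with shp300 (−2.29) and 2.37 and 3.22 FPKM with shCBP (−1.64). *CDK1* was thus lower with the hairpins in both backgrounds. Its 32 and 33 reads in the shHOXB13 with shp300/CBP libraries compare with 215 and 167 in shHOXB13.

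The 6 members that rose with shp300/CBP in shHOXB13 cells included *PLK1*, which had the smallest p, from 0.431 and 0.613 FPKM to 1.76 and 1.87 FPKM (log2 change 1.64, SE 0.28, limma adjusted p = 0.0016). *CENPK* went from 0.462 and 0.121 FPKM to 1.33 and 1.13 FPKM (1.91, SE 0.38) and *CDC20* from 0.286 and 0.126 FPKM to 1.02 and 0.95 FPKM (1.88, SE 0.42). These 3 genes stayed below their shCtrl values, which were 3.52 FPKM or more. *CDC25B* (1.43 and 2.47 to 3.92 and 3.82 FPKM), *CCNA2*, cyclin A2 (1.06 and 0.751 to 2.8 and 1.79 FPKM), and *KIF23* (0.215 and 0.395 to 1.01 and 0.558 FPKM) rose by 1.00, 1.24 and 1.11. The calls for *PLK1* and *CENPK* held without any 1 library, that for *CDC20* was lost without shHOXB13 replicate 2, that for *CDC25B* without shHOXB13 replicate 1, that for *CCNA2* without shHOXB13 replicate 2 or shHOXB13+shp300/CBP replicate 1, and that for *KIF23* without shHOXB13 replicate 1 or shHOXB13+shp300/CBP replicate 1. With shp300 alone, *HMMR* fell from 0.178 and 0.334 FPKM to 0 and 0.0352 FPKM and *BUB1B* rose from 0.149 and 0.112 FPKM to 0.393 and 0.354 FPKM, and both calls were lost on leaving out any of the 4 libraries. Exons of *CCNA2*, *CDC25C*, *PLK1*, *BUB1B*, *CENPA*, *SPC24*, *KIF4A*, *KIF20A*, *NUSAP1*, *HMMR*, *PRC1* and *FOXM1* share bases with a neighbouring listed gene (GENCODE 44), and counting took no account of strand.

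The test of the difference between backgrounds gave a positive interaction in 24 of 52 members and a negative one in none, against 2.54% and 5.59% of all genes, with a median member value of 1.82 on the log2 scale and an all-gene median of −0.022. A positive value means that shp300/CBP lowered the gene less, or raised it more, in shHOXB13 than in shCtrl cells. Of the 45 members that did not pass the low-value filter through shCtrl groups alone, 20 had a positive interaction. *UBE2C* (4.87, SE 1.10), *CDC20* (4.16, SE 0.59) and *MYBL2* (3.33, SE 0.47) had the largest values, and *PLK1* had 2.85 (SE 0.39). *MYBL2* shows the form: it went from 7.56 and 7.17 FPKM to 0.735 and 0.463 FPKM in shCtrl cells, and was at 0.288 and 0.34 FPKM in shHOXB13 cells without them and 0.43 and 0.176 FPKM with them. The shHOXB13 libraries were already low. *EP300* itself was lower under shHOXB13 alone (log2 change −0.92, limma adjusted p = 0.00067). Its mean there was 5.75 FPKM, beside 11 FPKM in shCtrl and 5.89 FPKM in shCtrl with shp300/CBP. How far the floor or the level of *EP300* enters the interaction was not tested. Leaving out 1 library left 7 to 25 members called (7 without either shCtrl library or shCtrl+shp300/CBP replicate 2, 8 without shHOXB13 replicate 1, 12 without shHOXB13 replicate 2, 13 without shCtrl+shp300/CBP replicate 1, 14 without shHOXB13+shp300/CBP replicate 1).

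Seen the other way, shHOXB13 against shCtrl with both hairpins present lowered 16 of 52 members and raised 1, where 34.8% of all genes fell and 8.29% rose, with a member median of −0.84 and an all-gene median of −0.35. With median-of-ratios scaling 6 fell and 2 rose. Of the 45 members that did not pass the low-value filter through shCtrl groups alone, 15 fell and 1 rose in the reported fit. *MAD2L1*, a checkpoint protein, had the largest fall, from 5.46 and 4.6 FPKM to 0.416 and 1.11 FPKM (log2 change −2.70, SE 0.42, limma adjusted p = 0.00032), and *BUB3* fell by 1.16. The member that rose was *CENPM*, from 1.9 and 1.16 FPKM to 3.02 and 2.82 FPKM (0.93, SE 0.23, adjusted p = 0.0059), a call lost without shCtrl+shp300/CBP replicate 2. *PLK1* did not pass, at 1.55 and 1.73 FPKM in shCtrl and 1.76 and 1.87 FPKM in shHOXB13 cells (0.14, 95% interval −0.47 to 0.75).

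**Figure D4:**
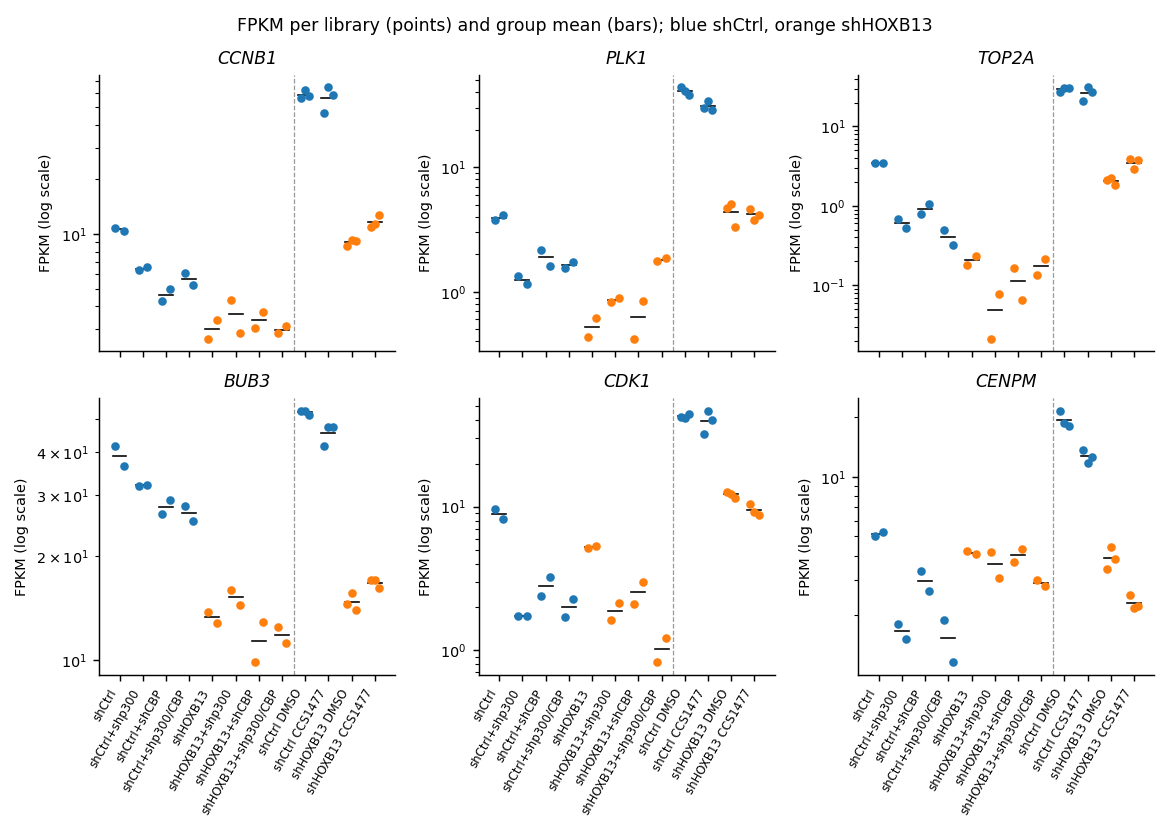
FPKM of *CCNB1*, *PLK1*, *TOP2A*, *BUB3*, *CDK1* and *CENPM* in each library (points) with group means (short horizontal lines) on a log axis, by group. *CDK1* is lowest in shHOXB13 with shp300/CBP (0.822 and 1.22 FPKM), *PLK1* is higher there (1.76 and 1.87 FPKM) than in shHOXB13, and *CENPM* stays at 4.2 and 4.09 FPKM in shHOXB13.

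CCS1477 moved these genes far less than HOXB13 knockdown. In shHOXB13 cells 11 of 52 members rose and 2 fell, where 29.2% of all genes rose and 10.4% fell, and the median member log2 change was 0.28 beside 0.20 for all genes. With median-of-ratios scaling, which puts the median gene at 0.0070, 5 rose and 3 fell, so the share of risers among calls depended on the scaling. The 95% interval lay within −1 to 1 in 46 of 52 members. *KIF20B*, a cytokinesis kinesin, rose most, from 0.895, 1.07 and 0.736 FPKM to 1.92, 1.61 and 1.96 FPKM (0.96, SE 0.16, limma adjusted p = 0.00056). *TOP2A* went from 2.12, 2.26 and 1.85 FPKM to 3.84, 2.89 and 3.73 FPKM (0.72, SE 0.15) and *UBE2C* from 2.18, 1.71 and 1.44 FPKM to 3.63, 2.6 and 3.08 FPKM (0.78, SE 0.17). *TTK*, the checkpoint kinase MPS1, rose by 0.72, from 1.06, 1.12 and 1.06 FPKM to 1.65, 1.95 and 1.94 FPKM, and *CCNB2* by 0.41. In none of these 5 did the groups overlap, which is not particular to them. Every CCS1477 library lay above every DMSO library in 20 of 52 members and below in 3. The share over all genes was not computed for this comparison. *KIF23* also rose (0.67, SE 0.15), and those 6 calls held without any 1 library, although *CCNB2* (0.21) did not pass with median-of-ratios scaling. The other 5 risers were *CCNB1* (0.37), *CDC25B* (0.40), *BUB3* (0.19, and −0.019 with median-of-ratios scaling), *INCENP* (0.45) and *ANLN* (0.55), each lost without at least 1 library.

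The 2 members that fell with CCS1477 in shHOXB13 cells were *CENPM* and *CDK1*. *CENPM* went from 3.41, 4.42 and 3.87 FPKM to 2.54, 2.18 and 2.24 FPKM (log2 change −0.72, SE 0.11, limma adjusted p = 0.00043). *CDK1* went from 12.7, 12.3 and 11.5 FPKM to 10.4, 9.24 and 8.77 FPKM (−0.36, SE 0.12, adjusted p = 0.029), a call lost without shHOXB13 DMSO replicate 1 or 2 or shHOXB13 CCS1477 replicate 2 or 3. With an equal sum of FPKM the *CDK1* change was −0.32 and did not pass (limma adjusted p = 0.089). *CDK1* was called lower in shHOXB13 cells with shp300/CBP and, less firmly, with CCS1477.

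In shCtrl cells CCS1477 lowered 13 of 52 members and raised 1, where 9.91% of all genes fell and 15.4% rose, with a member median of −0.26 and an all-gene median of 0.06. Kinetochore genes made up 6 of the 13 and kinesins 4. *SKA1*, which couples kinetochores to microtubule ends, went from 4.01, 3.67 and 3.4 FPKM to 1.73, 1.79 and 1.88 FPKM (log2 change −0.99, SE 0.22, limma adjusted p = 0.0065), *CENPM* from 21.5, 18.7 and 18.1 FPKM to 13.7, 11.7 and 12.6 FPKM (−0.61, SE 0.11), and *NDC80* from 33.9, 31.9 and 28.6 FPKM to 16.9, 23.9 and 23.4 FPKM (−0.57, SE 0.15). Groups did not overlap for these 3, which is not particular to them. Every CCS1477 library lay below every DMSO library in 17 of 52 members and above in 1. The all-gene share was not computed here. *INCENP* was the member that rose, from 10.8, 11.9 and 13.3 FPKM to 17.8, 20.7 and 14.5 FPKM (0.54, SE 0.13). Same-numbered libraries deviated together here (correlations of 0.50, 0.30 and 0.25), and with the replicate number as a block in a fit of these 2 groups, an alternative added after seeing the data, 20 fell and 1 rose. Leaving out 1 library left 6 to 14 called (6 without shCtrl DMSO replicate 2, 8 without shCtrl DMSO replicate 3 or shCtrl CCS1477 replicate 1 or 3).

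The CCS1477 response differed between backgrounds in 11 of 52 members, all with a higher value in shHOXB13 cells (9.1% of all genes had a positive and 4.15% a negative interaction; member median 0.50, all-gene median 0.13). The largest were *SKA1* (1.40, SE 0.31), *KIF20B* (1.21, SE 0.22) and *KIF23* (1.13, SE 0.21); *KIF23* had log2 changes of −0.46 in shCtrl and 0.67 in shHOXB13 cells. The call in shCtrl cells was lost in 5 of the 6 fits that left out 1 library (−0.56 to −0.30, limma adjusted p up to 0.13; it held without shCtrl CCS1477 replicate 2) and with an equal sum of FPKM, no filter or only the groups compared (adjusted p = 0.051, 0.056 and 0.077), while its interaction held without any 1 of the 12 libraries. *CDK1* had no called difference (−0.23, 95% interval −0.59 to 0.13). With CCS1477 in both arms 52 of 52 members were lower in shHOXB13 cells (median −2.59; 30.9% of all genes lower and 12% higher, all-gene median −0.20), with the smallest fall in *KIF20B* (−1.39), and all 52 had every shHOXB13 library below every shCtrl library, as did 38.1% of all genes.

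**Figure D5:**
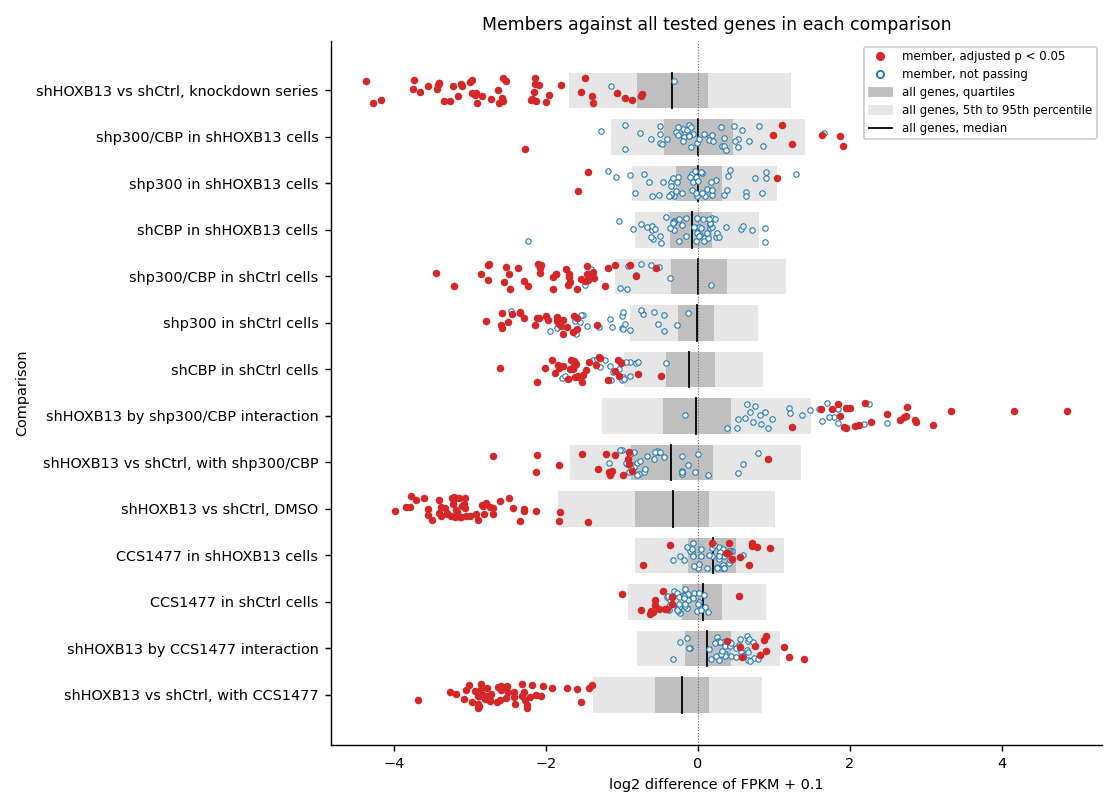
Log2 change of each of the 52 members (points, red where the limma adjusted p was under 0.05) in each of the 14 comparisons, beside the median, quartiles and outer percentiles (grey bands) of all genes tested. Members lie far below the all-gene median under shHOXB13 in both series (medians −2.62 and −3.13) and around 0 with shp300/CBP in shHOXB13 cells, with *CDK1* at −2.27 the low point.

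Other genes of the cell cycle, on lists that share no member with the 52, set the scale. Over all genes tested, 30.8% fell and 8.45% rose under shHOXB13 in the knockdown series, and 42.4% fell and 15.2% rose in DMSO. Of 49 other mitosis genes, 41 fell and 1 rose under shHOXB13 in the knockdown series (median −1.64) and 47 fell and 1 rose in DMSO (median −2.56). Of 30 DNA replication genes, 29 and 30 fell (medians −1.42 and −1.99), led by *RRM2*, a subunit of ribonucleotide reductase, with log2 changes of −4.73 and −3.14. Of 9 cohesin genes 7 and 8 fell (medians −0.75 and −1.06), and of 20 DREAM, E2F and NF-Y genes 15 and 18 (medians −1.02 and −0.80). The 13 core APC/C subunits had the medians nearest 0, with 8 and 7 lower and medians of −0.54 and −0.27 that were −0.14 and 0.072 with median-of-ratios scaling, when 2 and 4 were lower and 1 and 3 higher.

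With shp300/CBP in shCtrl cells 32 of 49 other mitosis genes fell and 1 rose, and 20 of 30 replication genes fell. Over all genes 9.4% fell and 8.9% rose there. In shHOXB13 cells, where 16.2% of all genes fell and 10.4% rose, the counts were 5 lower and 1 higher of 49 and 9 lower and 0 higher of 30. The replication genes that fell there included *RRM1* (−1.27) and *PCNA*, the polymerase clamp (−0.81); with each library scaled to the same sum of FPKM 3 fell and 2 rose. The separase gene *ESPL1*, which opens cohesin, was the other mitosis gene that rose, from 0.0724 and 0.0793 FPKM to 0.579 and 0.646 FPKM (log2 change 2.02, limma adjusted p = 0.00035). *CENPN*, a partner of CENPM at the inner kinetochore, was at 33.4 and 35 FPKM in shHOXB13 against 40.8 and 38.9 FPKM in shCtrl cells (−0.22, not past the threshold), and fell to 3.65 and 9.01 FPKM with shp300/CBP (−2.55). In DMSO it was higher in shHOXB13 than in shCtrl cells, at 95.1, 93.5 and 84.6 FPKM against 36.4, 47.7 and 46.2 FPKM (1.08, adjusted p = 2.5e-05), and CCS1477 took it to 16.7, 17.4 and 17.3 FPKM (−2.40). The groups did not overlap in that comparison, for which the share over all genes was not computed. With CCS1477 in shHOXB13 cells 7 of 9 cohesin genes rose and none fell, and 9 of 20 DREAM, E2F and NF-Y genes rose and 1 fell. Over all genes 29.2% rose and 10.4% fell in that comparison. With median-of-ratios scaling the list counts became 5 and 0, and 5 and 1.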

How the data were processed

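Poly(A) RNA (per the labels) of LNCaP cells was sequenced in 28 libraries of 12 groups, assigned from the sample titles. Per the study's methods, the authors aligned reads with STAR (2.6.0, hg38, from the submitters' processing notes), took unstranded gene counts from the aligner and deposited FPKM values scaled by all mapped reads; the gene annotation's version is not given in the sources used here. The share of mapped reads in genes ranged from 52.6% to 74.3% (knockdown) and from 78.3% to 83.9% (CCS1477), which a scaling by all mapped reads passes on to FPKM. The authors tested genes with pairwise DESeq2, which needs counts and was not run on FPKM.

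Genes at 0.1 FPKM or more in at least 2 (knockdown series, 17678 genes) or 3 libraries (CCS1477 series, 15907 genes) were tested on log2(FPKM + 0.1), so fold changes of low genes are understated. One limma fit (3.58.1, R 4.3.3, trended prior) per series held all its groups, with no block, and p-values were adjusted by Benjamini-Hochberg over all genes tested; a call is an adjusted p under 0.05, with no minimum fold. Labels and methods name biological replicates without saying how cultures were separated. Of 26475 listed genes, 32 had no value. Mapped reads and gene lengths were inferred as those for which values gave whole reads within 0.05, found for 21050 genes. The fitting script was tested on simulated data. Members and lists were chosen with earlier results of these data known. Members named are, per role, the 2 with the smallest p in each of 3 comparisons (shHOXB13 against shCtrl, and shp300/CBP and CCS1477 in shHOXB13 cells) and any called against the majority; other members are named where a comparison turns on them. Of other lists, up to 3 genes each were eligible by the same p. Alternatives were another pseudocount, filter, scaling, set of groups and a replicate block, and each library left out. Same-numbered libraries of shCtrl DMSO and shCtrl CCS1477 deviated together over 11813 genes, a hint of pairing that the labels do not give. The reported fit did not use it, and only the alternatives with a replicate block did. In the other pairs of groups correlations were low.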

Additional observations from a re-analysis of the deposited data

Results flagged for a closer look

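In the knockdown series, the response to shp300/CBP differed between shHOXB13 and shCtrl cells in 24 members by limma's interaction term, each with a higher value in shHOXB13 cells. On the log2 scale the entry genes had interactions of 1.85 (*CCNA2*), 3.10 (*CDC25C*) and 2.85 (*PLK1*), and the checkpoint and APC/C genes 2.12 (*BUB1*), 1.62 (*BUB1B*), 4.16 (*CDC20*) and 4.87 (*UBE2C*). Passenger genes had 2.49 (*BIRC5*) and 2.20 (*CDCA8*), and kinetochore genes 2.87 (*CENPA*), 2.72 (*CENPK*), 1.24 (*CENPM*), 2.74 (*NDC80*) and 1.95 (*SKA1*). Kinesins had 2.75 (*KIF2C*), 1.76 (*KIF11*), 1.88 (*KIF14*) and 2.01 (*KIF20A*), spindle genes 2.28 (*DLGAP5*) and 1.92 (*ASPM*), the cytokinesis gene *ANLN* 2.07, and the regulators 1.95 (*FOXM1*), 3.33 (*MYBL2*) and 2.66 (*TOP2A*). *SKA1*, *KIF14*, *KIF20A* and *ASPM* passed the low-value filter through shCtrl groups alone. Without any 1 library, 7 of the 24 stayed called (*PLK1*, *CDC20*, *CENPK*, *NDC80*, *KIF2C*, *MYBL2* and *TOP2A*).

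In the CCS1477 series, 11 members responded differently to CCS1477 in the 2 backgrounds by the same kind of term, each with a higher value in shHOXB13 cells. These were *CCNB2* (0.75), *BUB3* (0.39), *TTK* (0.88), *UBE2C* (0.90), *NDC80* (0.82), *SKA1* (1.40), *KIF2C* (0.58), *KIF20B* (1.21), *KIF23* (1.13), *ECT2* (0.56) and *TOP2A* (0.90). Without any 1 library 6 stayed called, and *BUB3*, *UBE2C*, *NDC80*, *KIF2C* and *ECT2* did not. *UBE2C*, *NDC80*, *SKA1*, *KIF2C* and *TOP2A* were also among the 24 of the knockdown series.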

How the results depend on the processing

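The count of members called lower under shHOXB13 in the knockdown series, 50 as reported, stayed within 1.5 times in each alternative: 51 with a pseudocount of 1 FPKM, 43 of the 44 that passed the stricter filter of 1 FPKM, 44 with median-of-ratios scaling, 47 with an equal sum of FPKM, and 42 to 48 with 1 library left out. In DMSO and with CCS1477 it was 52 in each alternative (52 to 52 with 1 library left out). Other counts moved, and the cause was not tested. A pseudocount of 1 FPKM gave 1 member for shp300 and 1 for shCBP in shHOXB13 cells, 41 for shp300 in shCtrl cells and 37 for the shp300/CBP interaction. For shp300 in shHOXB13 cells no filter gave 1, the stricter filter 3 and an equal sum of FPKM 5 (the last 2, and the count of 1 without shHOXB13 replicate 2, with more risers than fallers), the replicate block 1 and a fit of only the groups compared 1. For shCBP in shHOXB13 cells the stricter filter gave 2 and median-of-ratios scaling 1. For shHOXB13 with both hairpins median-of-ratios scaling gave 8, an equal sum 10 and only the groups compared 7; the latter gave 3 for shp300/CBP in shHOXB13 cells. Median-of-ratios scaling gave 8 for CCS1477 in shHOXB13 cells, turned *CENPM* under shHOXB13 in the knockdown series to 0.086 and *BUB3* under CCS1477 in shHOXB13 cells to −0.019. With 1 library left out, counts ran from 13 to 32 for shp300/CBP, 6 to 9 for shp300 and 2 to 23 for shCBP in shCtrl cells, 5 to 9, 1 to 2 and 0 to 1 for the same in shHOXB13 cells, 7 to 25 for the interaction, 10 to 17 for shHOXB13 with both hairpins, 10 to 13 and 6 to 14 for CCS1477 in shHOXB13 and shCtrl cells, and 6 to 16 for the CCS1477 interaction (6 without shCtrl DMSO replicate 2, 7 without shHOXB13 CCS1477 replicate 1, 16 without shCtrl CCS1477 replicate 2). A group left with 1 library is assumed to vary like the others. Of 145 named calls, 91 held without any 1 library and 54 were lost at least once. The replicate block changed no other count by over 1.5 times in the fit of all groups (14 for CCS1477 in shCtrl cells; 21 in the blocked fit of only those groups, added after seeing the data). In the other pairs of groups compared, correlations ran from −0.11 to 0.08, so no pairing by number was seen there. A pair of knockdown groups gives only a single such value, and a shared batch was not tested. Members rested on a median of 21 (knockdown) and 298 (CCS1477) reads, and 44 and 9 of them on fewer than 20 reads in some library, so small changes of these were not detectable in the knockdown series.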
